A study of Mus musculus with 24 samples.

Results

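AP-1 and EGR proteins are transcription factors. Many of their genes are immediate early genes, which are switched on within minutes of a signal and need no new protein for it. The 10 genes described here were taken by symbol from the 37310 genes of the deposited expression tables. They were 4 genes of the FOS family (Fos, Fosb, Fosl1, Fosl2), 3 of the JUN family (Jun, Junb, Jund) and 3 of the EGR family (Egr1, Egr2, Egr3). All 10 passed the filter on low values and were among the 14095 genes tested. Fosb had an FPKM (reads scaled to gene length and library depth) under 1 in the control cells of both depots at day 8 and of brown fat at day 4, and it passed the filter through the other groups.

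The cells were stromal vascular cells, the mixed fraction of fat that holds adipocyte precursors, from 6-week-old C57BL/6 mice. They came from inguinal white adipose tissue (WAT) or interscapular brown adipose tissue (BAT). All cultures were made to differentiate with insulin, dexamethasone and IBMX until day 4, and then with insulin and T3 until day 8. Each depot was sampled at day 4 and at day 8, with epigallocatechin gallate (EGCG, a green tea catechin) in the medium or with its solvent DMSO (control), which gave 8 groups of 3 libraries. The labels give no dose of EGCG, no number of mice per culture and no word on whether replicates were separate isolations, so p-values measure only the spread between these samples. The medium was changed between the sampling days, so day and medium cannot be told apart.

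An AP-1 complex is a dimer of a FOS and a JUN protein, or of a pair of JUN proteins, that binds short DNA elements through a leucine zipper and a basic region. The EGR proteins are zinc finger factors that bind a GC-rich element. Growth factors reach these genes through MAP kinases, the ELK proteins and serum response factor (SRF), and cyclic AMP reaches some of them through CREB. In fat, Fos and Egr2 (also named Krox20) are known as early genes of adipocyte differentiation in culture, and IBMX, which was in the induction medium, is an inhibitor of cyclic AMP breakdown.

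Promoters of 7 of the 10 genes were taken from the RefSeq table (GRCm38.p6), while Fosl1, Egr1 and Egr3 are only named here. The 250 bases before the annotated start of 5 of the 7 are shown. In Fos, Fosb, Fosl2 and Egr2 they hold letters that CREB, SRF or EGR proteins are known to bind, and in Jun they hold TGACATCA. The Junb window also holds such letters but is not shown. Capitals mark the CRE half-site TGACG (either strand), the related element TGACATCA, the CArG box of SRF and the EGR element GCGNGGGCG.
Fos, chr12:85473640-85473889, plus strand: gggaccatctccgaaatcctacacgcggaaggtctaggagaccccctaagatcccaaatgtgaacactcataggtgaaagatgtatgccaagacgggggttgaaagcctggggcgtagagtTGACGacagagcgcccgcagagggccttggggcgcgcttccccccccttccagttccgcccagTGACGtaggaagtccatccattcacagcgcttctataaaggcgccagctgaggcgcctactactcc
Fosb, chr7:19310046-19310295, minus strand: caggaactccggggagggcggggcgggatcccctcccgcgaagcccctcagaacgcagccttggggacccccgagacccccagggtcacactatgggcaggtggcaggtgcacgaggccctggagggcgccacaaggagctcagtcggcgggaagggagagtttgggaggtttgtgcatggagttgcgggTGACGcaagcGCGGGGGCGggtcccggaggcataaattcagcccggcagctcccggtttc
Fosl2, chr5:32136222-32136471, plus strand: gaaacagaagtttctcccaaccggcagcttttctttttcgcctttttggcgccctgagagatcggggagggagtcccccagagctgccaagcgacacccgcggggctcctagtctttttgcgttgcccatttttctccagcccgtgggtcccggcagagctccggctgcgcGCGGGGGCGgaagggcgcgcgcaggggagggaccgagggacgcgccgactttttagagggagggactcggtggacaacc
Jun, chr4:95052223-95052472, minus strand: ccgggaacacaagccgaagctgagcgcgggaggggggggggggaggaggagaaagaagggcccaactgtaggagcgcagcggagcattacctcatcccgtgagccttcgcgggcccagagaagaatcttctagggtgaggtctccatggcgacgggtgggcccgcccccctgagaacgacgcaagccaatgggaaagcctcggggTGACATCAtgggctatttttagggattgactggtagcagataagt
Egr2, chr10:67537619-67537868, plus strand: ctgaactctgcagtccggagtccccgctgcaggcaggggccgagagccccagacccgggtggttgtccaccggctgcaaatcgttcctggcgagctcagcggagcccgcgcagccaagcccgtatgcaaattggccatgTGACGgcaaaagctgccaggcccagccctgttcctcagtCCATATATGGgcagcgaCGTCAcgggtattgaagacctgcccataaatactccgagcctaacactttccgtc

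The Fos window held 2 CRE half-sites, and the one nearer to the start ended 62 bases before it. The Fosb window held 1 CRE half-site and 1 EGR element, and the Fosl2 window held the same EGR letters. The Jun window held TGACATCA. In the Egr2 window, which is 1 of 5 annotated starts, a CArG box stood between 2 CRE half-sites on opposite strands. A CArG box was present in 1.47% of 32851 windows of this length, the EGR element in 4.7%, TGACATCA in 2.93%, and a CRE half-site in 17.8%. No full CRE (TGACGTCA, which contains the half-site and was in 1.55% of windows) and no TGANTCA (6.75%) was found in the 7 genes' windows. The Junb window held 1 CRE half-site, and the Jund window had none of these letters.

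By the annotation of the deposited tables (NCBIM37, mm9), all 10 are protein-coding. Fos lies at chr12:86814840-86818223, Fosb at chr7:19888070-19895394, Fosl1 at chr19:5447703-5455945 and Fosl2 at chr5:32438845-32460204. Jun lies at chr4:94715725-94718913, Junb at chr8:87500811-87502617 and Jund at chr8:73221638-73224515. Egr2 lies at chr10:66998223-67004936 and Egr3 at chr14:70477252-70479964. Fosl1, Jun, Jund and Egr1 each overlap 1 gene on the opposite strand (Ccdc85b, BC042782, Gm11175 and Gm17507). The strand setting of the counting is not given in the sources used here, so reads of such a pair cannot be told apart.

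Depth was 39452696 to 52893848 gene reads a library in replicates 1 and 2, and 16392420 to 41675643 in replicate 3. Among replicates 1 and 2, the lowest member value rested on 55 reads (Fosb) and the highest on 33530 (Egr1). The 2 tables had been scaled separately, so replicate 3 gave only directions. The library of WAT day 8 EGCG replicate 3 stood apart, with 61.0% of its reads on 5 genes against 3.64 to 10.5% elsewhere, and its FPKM values were rescaled by median ratios before use. The depot labels fitted Zic1, a brown depot gene, at 3.81 to 10.8 FPKM in the BAT groups and at most 0.146 in the WAT groups. Of 4 brown depot genes, 2 were called higher in BAT control at day 4, 4 at day 8, and 2 with EGCG on each day. Of 4 white depot genes, 4 were lower in BAT control on each day and 3 with EGCG. None was called the other way. Over all tested genes 41.4 and 31.6% were called higher in BAT control at day 4 and day 8, and 32.9 and 24.4% with EGCG. The shares called lower were 14.4, 22.0, 15.8 and 14.0%. Lhx8, a brown depot gene, was at 18.4 FPKM in WAT day 4 control and 10.3 in BAT day 8 control. Tbx15, a white depot gene, was at 29.4 FPKM in WAT day 8 EGCG and 30.55 in BAT day 8 EGCG. Ucp1, the defining gene of brown fat, was at 6.56 FPKM in BAT day 8 control, at 0 in both tested libraries of BAT day 8 EGCG and at most 0.333 in the other groups.

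In the FOS family Fosl2 had the highest mean level of replicates 1 and 2 in every group. In replicate 3 of BAT day 8 EGCG Fos was above it, with 45.9% of the family against 44.96%. Fosl2, which encodes the FOS-related protein FRA2, ranged from 32.5 to 77.7 FPKM over the 16 libraries and made up 48.4 to 87.6% of the summed FPKM of the family. Fos spanned the widest range of all members, from 3.40 to 73.1 FPKM, and its share ran from 7.5% in WAT day 8 control to 45.2% in BAT day 8 EGCG. Fosl1, which encodes FRA1, stayed between 1.13 and 12.4 FPKM, and Fosb between 0.326 and 3.61.

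In the JUN family Junb had the highest mean level of replicates 1 and 2 in every group, from 34.2 to 188 FPKM and 34.8 to 74.6% of the family. In replicate 3 Jund led in WAT at day 8, with 39.5% against 33.2% for Junb in control, and with EGCG with 42.8% against 29.6% for Jun and 27.6% for Junb. Jun, the partner of the classical FOS-JUN dimer, ranged from 16.6 to 64.9 FPKM. Jund, a member that most cells express steadily, ranged from 14.5 to 42.8 FPKM. In the EGR family Egr1 led in 7 of 8 groups, with 14.4 to 204.5 FPKM and 39.8 to 84.1% of the family. In WAT day 8 EGCG Egr2 had 43.1% and Egr1 39.8%, and in replicate 3 of that group Egr1 had 44.7% and Egr2 43.6%. Egr2 ranged from 13.7 to 82.4 FPKM and Egr3 from 2.67 to 26.1.

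**Figure D1:**
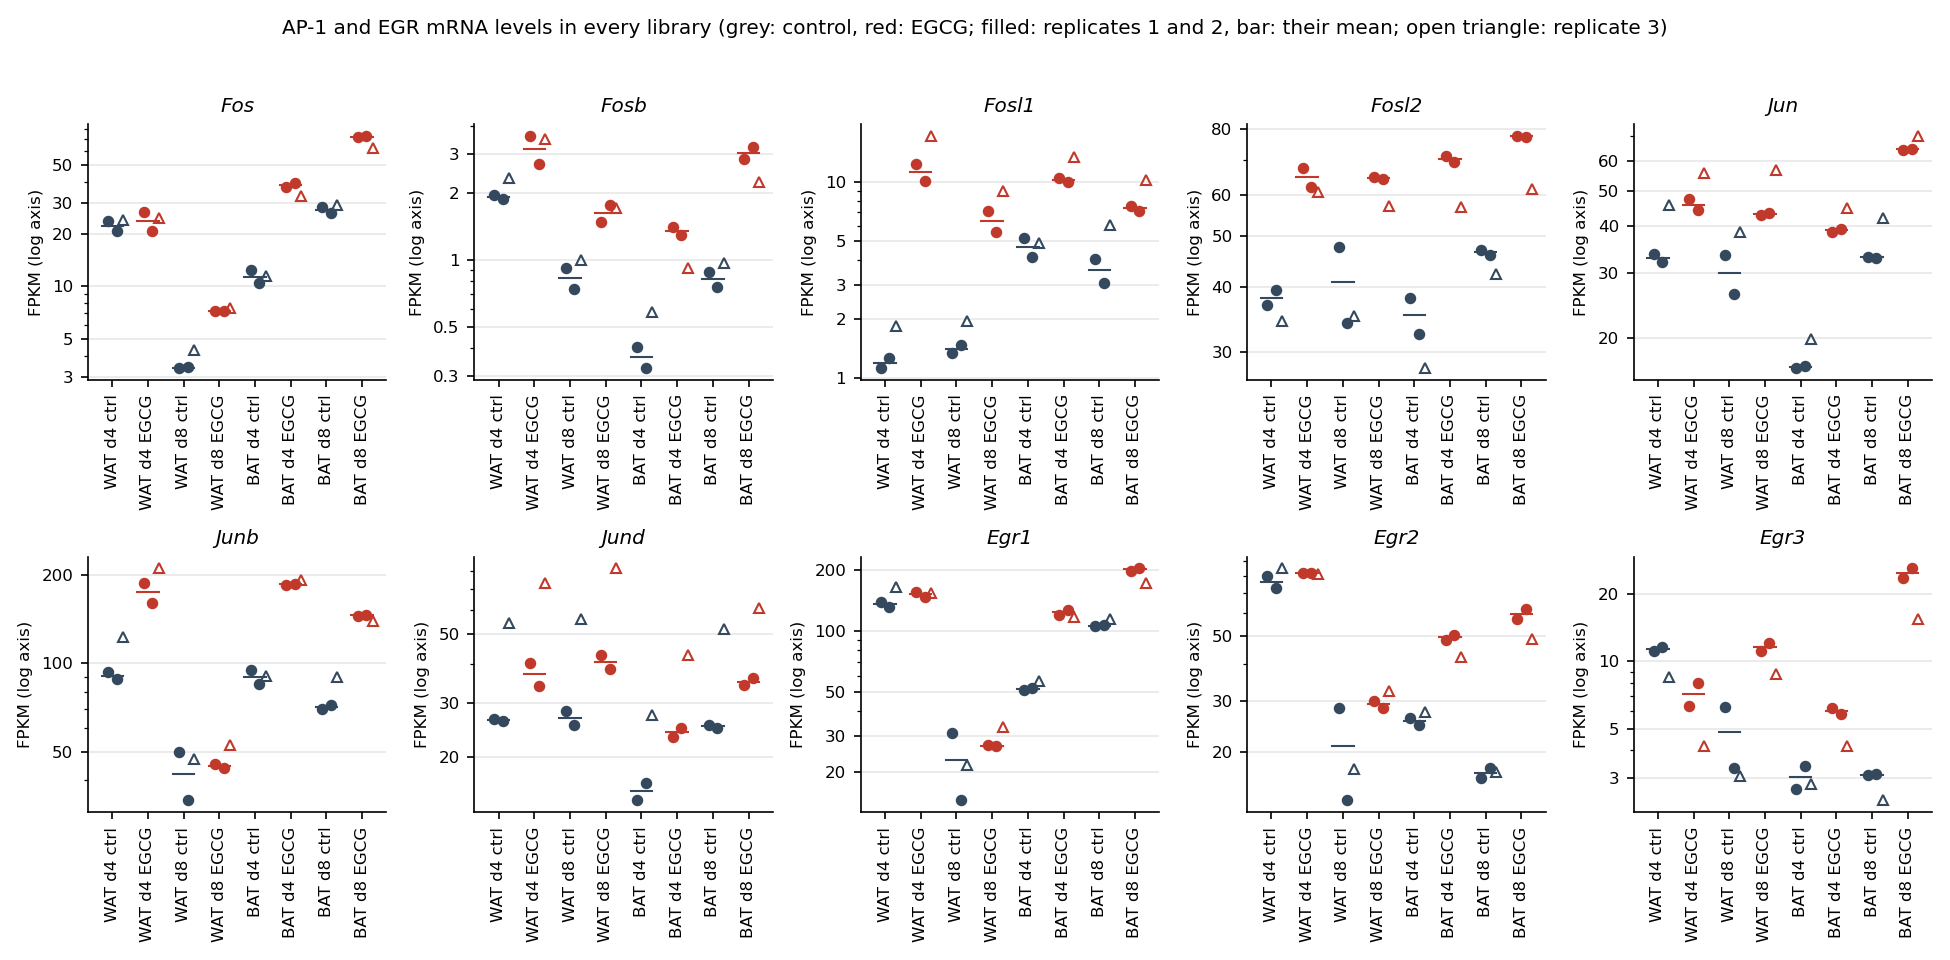
FPKM of each member in every library, on log axes, with the 8 groups on the horizontal axis (control in grey, EGCG in red). Filled points are replicates 1 and 2, bars their mean, and open triangles replicate 3 after median-ratio scaling. Fos runs from 3.41 FPKM (mean of WAT day 8 control) to 72.5 (BAT day 8 EGCG), and Jund is higher in replicate 3 in every group.

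**Figure D2:**
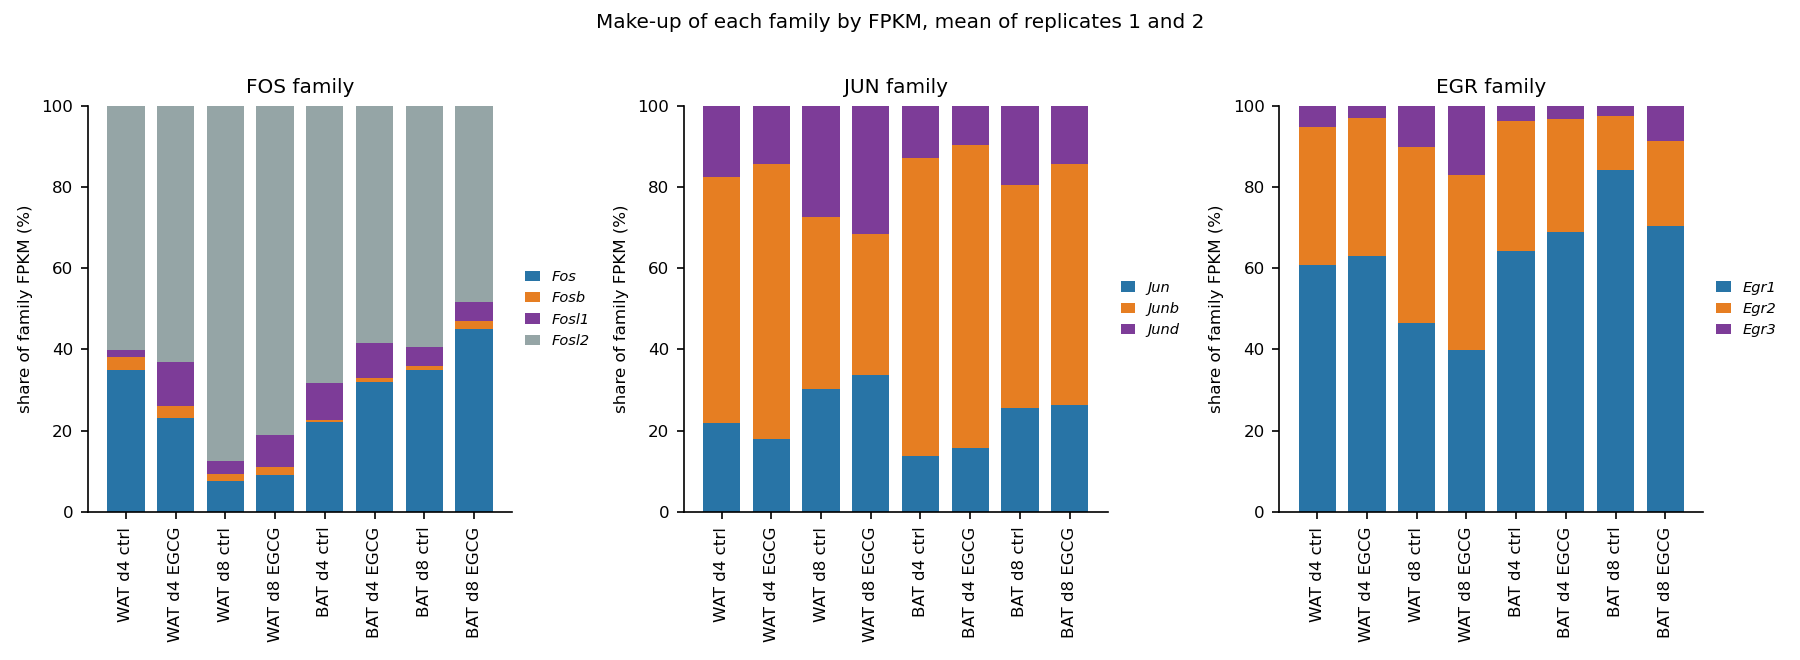
Share of each member in the summed FPKM of its family, mean of replicates 1 and 2, in the 8 groups. Fosl2 fills 87.6% of the FOS bar in WAT day 8 control and 48.4% in BAT day 8 EGCG, and Egr1 fills 84.1% of the EGR bar in BAT day 8 control.

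The first comparison asked how the mRNA of these factors differed with EGCG in each depot and on each day. In BAT all 10 members were higher with EGCG at day 4 and all 10 at day 8. Of all tested genes, 27.9% were called higher and 20.6% lower in BAT at day 4, and 46.5% higher and 26.1% lower at day 8. In WAT 6 members were higher and Egr3 was lower at day 4, and 8 were higher at day 8. There 34.4% of all tested genes were called higher and 19.3% lower at day 4, and 44.7% were called higher and 18.9% lower at day 8. The median log2 change of the 10 members was 0.468 (WAT day 4), 0.559 (WAT day 8), 0.986 (BAT day 4) and 0.984 (BAT day 8). Over all tested genes the medians were 0.087, 0.166, 0.032 and 0.168.

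Calls were made where limma gave an adjusted p under 0.05 (Benjamini-Hochberg over all tested genes). Log2 changes are of FPKM + 1 with their SE, folds are ratios of mean FPKM, and n is 2 libraries a group unless stated. In replicate 3 after median-ratio scaling, every one of the 35 called EGCG changes of a member had the same direction. For the 8 calls in WAT at day 8 this rests on the scaling of the EGCG library that stood apart: in its FPKM as deposited 6 of the 8 members (Fos, Fosb, Fosl2, Jun, Jund and Egr2) were below the control library, as with Fos at 3.09 and 3.95 FPKM and Jun at 23.4 and 35.5. Median-ratio scaling of the 16 libraries moved the median of all genes to -0.023, 0.005, -0.001 and 0.019 in the same order, and it turned no called direction of a member. It lowered the share of higher genes among those called from 64.1 to 44.7% in WAT day 4, from 70.3 to 51.2% in WAT day 8 and from 64.0 to 51.8% in BAT day 8.

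Fosl1 had the largest EGCG response of the 10 in WAT on both days. In WAT at day 4 it was at 1.13 and 1.27 FPKM in the control libraries and at 12.4 and 10.15 with EGCG. The groups did not overlap, and the mean was 9.39-fold higher (log2 change 2.47 ± 0.13, adjusted p = 4.68e-08 in limma). At day 8 it was at 1.34 and 1.47 FPKM in control and at 7.10 and 5.58 with EGCG. That was 4.5-fold higher (log2 change 1.60 ± 0.13). In BAT the control level was already higher, at 5.17 and 4.17 FPKM on day 4 and 4.04 and 3.04 on day 8. EGCG raised it there by 2.2-fold and 2.08-fold. The WAT response exceeded the BAT response at day 4 by 1.48 on the log2 scale (interaction -1.48 ± 0.19, adjusted p = 0.000193 in limma) and at day 8 by 0.71 (-0.71 ± 0.19). Within WAT the response was smaller at day 8 than at day 4 (difference -0.87 ± 0.19). Fosl1 made up 1.89% of the FOS family in WAT day 4 control and 10.9% with EGCG.

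Fosl2 rose in all 4 comparisons, by 1.70-fold in WAT at day 4, 1.58-fold in WAT at day 8, 1.99-fold in BAT at day 4 and 1.67-fold in BAT at day 8. Its 8 EGCG libraries lay between 62.1 and 77.7 FPKM and its 8 control libraries between 32.5 and 47.6, with no overlap. No depot or day difference of this response was called, and the differences ran from -0.25 to 0.23 on the log2 scale with an SE of 0.17. Without WAT day 8 control replicate 1 or 2, the smaller response at day 8 in BAT (-0.25) had an adjusted p of 0.038, and without replicate 2 the day difference in WAT was -0.318 (0.0269) and the depot difference at day 8 was 0.294 (0.0417).

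Fos, the prototype immediate early gene, responded to EGCG in 3 of the 4 comparisons. In BAT at day 4 it was at 12.4 and 10.4 FPKM in control and at 37.4 and 39.1 with EGCG. That was a 3.36-fold difference (log2 change 1.67 ± 0.10, adjusted p = 1.742e-07 in limma). In BAT at day 8 it was at 28.4 and 26.3 FPKM in control and at 71.8 and 73.1 with EGCG, 2.65-fold higher. WAT at day 8 had 3.40 and 3.43 FPKM in control and 7.25 and 7.19 with EGCG, 2.12-fold higher but low in both groups. The groups overlapped in WAT at day 4, with 23.75 and 20.7 FPKM in control and 26.9 and 20.9 with EGCG (log2 change 0.09 ± 0.10, adjusted p = 0.494 in limma). Without WAT day 4 EGCG replicate 2 that change was 0.264 with an adjusted p of 0.0435. The response was larger in BAT than in WAT by 1.58 ± 0.15 at day 4 and by 0.48 ± 0.15 at day 8. On the log2(FPKM + 1) scale the change of the low WAT values at day 8 understates their fold of 2.12. This widens the day 8 difference. The day 8 difference lost its call in 8 of 25 alternatives (adjusted p up to 0.258 in limma). Among them was leaving out any 1 of 5 libraries (log2 difference 0.422 to 0.487).

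Fosb, a close relative of Fos, had the lowest mean of the 10 in 7 of 8 groups (in WAT day 4 control it was at 1.91 FPKM and Fosl1 at 1.20), and its changes on the log2(FPKM + 1) scale understate its folds. In BAT it was at 0.404 and 0.326 FPKM in day 4 control and at 1.41 and 1.30 with EGCG, 3.71-fold higher. At day 8 it was 3.70-fold higher in BAT. In WAT it was 1.65-fold higher at day 4 and 1.96-fold higher at day 8. All 4 changes were called, and the depot difference was called at day 8 (0.62 ± 0.16).

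Among the JUN genes, Jun rose in all 4 comparisons and more in BAT. In BAT at day 4 it was at 16.6 and 16.8 FPKM in control and at 38.7 and 39.4 with EGCG, 2.34-fold higher (log2 change 1.18 ± 0.08, adjusted p = 3.78e-07 in limma). It was 1.96-fold higher in BAT at day 8, and 1.39-fold and 1.45-fold higher in WAT at day 4 and day 8. The depot difference was 0.71 ± 0.12 at day 4 and 0.42 ± 0.12 at day 8, both called. Junb, often described as a JUN member that restrains Jun, rose by 1.92-fold in WAT at day 4 and by 2.07-fold and 2.04-fold in BAT. In WAT at day 8 it was at 49.9 and 34.2 FPKM in control and at 45.5 and 44.1 with EGCG, so the EGCG values lay between the control values (log2 change 0.11 ± 0.13, adjusted p = 0.469 in limma). Without WAT day 8 control replicate 1 that change was 0.381 with an adjusted p of 0.00233. Jund rose in all 4 comparisons by 1.40-fold to 1.56-fold, the narrowest span of the 10, and no depot or day difference of its response was called.

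Egr1, the most abundant EGR mRNA, rose in BAT and was not called in WAT. In BAT at day 4 it was at 50.7 and 52.4 FPKM in control and at 119.7 and 127.4 with EGCG, 2.40-fold higher (log2 change 1.25 ± 0.23). At day 8 it was at 105.9 and 106.8 FPKM in control and at 199.1 and 204.5 with EGCG, 1.90-fold higher. In WAT at day 4 it was at 139.4 and 131.9 FPKM in control and at 156.7 and 146.8 with EGCG (log2 change 0.16 ± 0.23, adjusted p = 0.577 in limma). At day 8 in WAT the EGCG libraries, at 27.1 and 26.8 FPKM, lay between the control libraries, at 31.2 and 14.4. Leaving out WAT day 8 control replicate 1 gave a called rise of 0.856, and leaving out replicate 2 a called fall of 0.204. The control library of replicate 3 was at 19.7 FPKM. These 2 libraries also set the spread of Egr1 in the shared fit: without either of them the WAT day 4 change of 0.161 had an adjusted p of 0.00986 or less. The depot difference at day 4 was 1.08 ± 0.32, and it lost its call with any 1 of 8 libraries left out (adjusted p of 0.057 to 0.0729).

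Egr2 rose in BAT from 26.2 and 24.9 FPKM to 48.6 and 50.4 at day 4, which was 1.94-fold. At day 8 it rose from 16.4 and 17.7 FPKM to 57.3 and 61.8, which was 3.50-fold (log2 change 1.75 ± 0.22, adjusted p = 1.542e-05 in limma). In WAT at day 4 it was at 79.96 and 72.9 FPKM in control and at 82.4 and 81.9 with EGCG, and that difference was not called (log2 change 0.10 ± 0.22). At day 8 in WAT it was at 28.5 and 13.7 FPKM in control and at 30.1 and 28.3 with EGCG. The groups overlapped, the adjusted p was 0.0494, and the call was lost in 19 of 25 alternatives, among them leaving out any 1 of 15 libraries (log2 change 0.0336 to 0.576). The depot difference at day 4 was 0.823 (adjusted p = 0.067 in limma), and it was called in 6 of 25 alternatives. At day 8 it was 1.21 ± 0.31 and was called.

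Egr3, a further EGR gene with a low level in most groups, had the highest single EGCG response of the family. In BAT at day 8 it was at 3.08 and 3.12 FPKM in control and at 23.75 and 26.1 with EGCG, 8.05-fold higher (log2 change 2.66 ± 0.19, adjusted p = 9.92e-08 in limma). In BAT at day 4 it was at 2.67 and 3.39 FPKM in control and at 6.16 and 5.83 with EGCG, 1.98-fold higher. In WAT at day 4 it went the other way, from 11.2 and 11.6 FPKM in control to 6.29 and 8.04 with EGCG (log2 change -0.61 ± 0.19, adjusted p = 0.0165 in limma). This call was lost without WAT day 4 control replicate 1 (adjusted p = 0.0548 in limma), control replicate 2 (0.0693) or EGCG replicate 1 (0.129), and replicate 3 had the same direction (log2 change -0.88). At day 8 in WAT it was at 6.28 and 3.34 FPKM in control and at 11.1 and 12.1 with EGCG, 2.41-fold higher. The response was larger at day 8 than at day 4 in WAT by 1.77 ± 0.26 and in BAT by 1.86 ± 0.26. It was larger in BAT than in WAT by 1.41 ± 0.26 at day 4 and by 1.50 ± 0.26 at day 8.

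**Figure D3:**
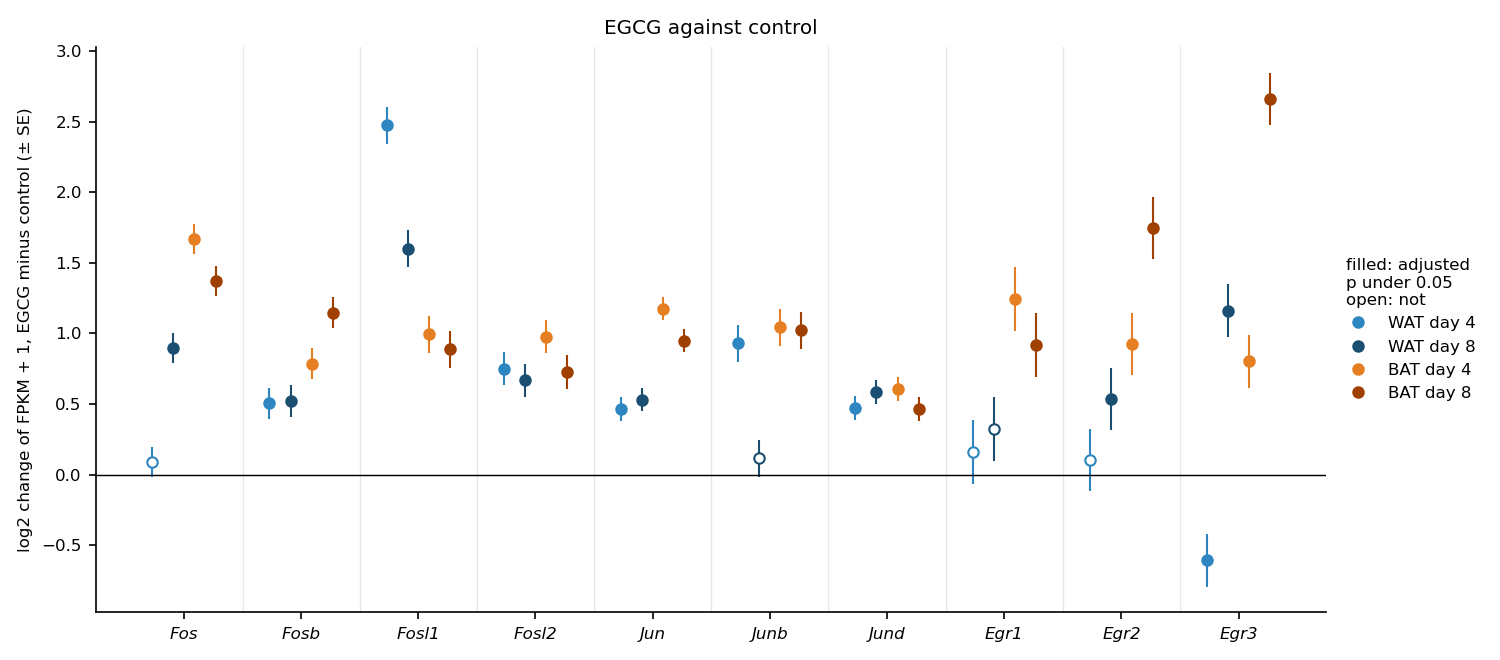
Log2 change of FPKM + 1 (EGCG minus control, ± SE) for each member in WAT and BAT at day 4 and day 8. Filled points had an adjusted p under 0.05. All 20 BAT points lie above 0, Fosl1 leads in WAT (2.47 and 1.60), Egr3 leads in BAT at day 8 (2.66), and Egr3 in WAT at day 4 is the one value below 0 (-0.61).

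The depots differed in their EGCG response for 5 members at day 4 (Fos, Jun, Egr1 and Egr3 more in BAT, Fosl1 more in WAT) and for 7 at day 8 (Fos, Fosb, Jun, Junb, Egr2 and Egr3 more in BAT, Fosl1 more in WAT). Of all tested genes, 28.1% were called for this difference at day 4 and 39.2% at day 8. Median-ratio scaling moved the share of higher genes among the called ones at day 4 from 42.7 to 61.5%. The days differed for 4 members in WAT (Fos and Egr3 up, Fosl1 and Junb down at day 8), where 49.4% of all genes were called, and for 2 in BAT (Egr2 and Egr3), where 55.4% were. The count in BAT moved between 1 and 8 over the alternatives. The Egr2 call in BAT was lost with any 1 of 14 libraries left out (adjusted p of 0.0505 to 0.101).

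The second comparison asked how the factors changed from day 4 to day 8 of differentiation. In WAT control cells 6 members were lower at day 8 (Fos, Fosb, Junb and the 3 EGR genes), where 33.2% of all tested genes were called lower and 27.7% higher. In BAT control cells 6 were higher (Fos, Fosb, Fosl2, Jun, Jund, Egr1) and 3 lower (Fosl1, Junb, Egr2), with 28.7% of all genes called higher and 40.4% lower. The median log2 change of the members was -0.895 in WAT and 0.404 in BAT, and over all tested genes it was -0.032 and -0.100.

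Fos and Egr1 moved in opposite directions in the depots. In WAT control cells Fos went from 23.75 and 20.7 FPKM at day 4 to 3.40 and 3.43 at day 8, 6.52-fold lower (log2 change -2.39 ± 0.10, adjusted p = 7.959e-09 in limma). In BAT control cells it went from 12.4 and 10.4 FPKM to 28.4 and 26.3, 2.41-fold higher (log2 change 1.20 ± 0.10). The depot difference of these changes was 3.59 ± 0.15. Egr1 went from 139.4 and 131.9 FPKM to 31.2 and 14.4 in WAT control cells, 5.94-fold lower, and from 50.7 and 52.4 to 105.9 and 106.8 in BAT control cells, 2.06-fold higher. Its depot difference was 3.65 ± 0.32. Replicate 3 had the same directions for both genes in both depots.

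The other members followed in part. In WAT control cells Egr2 was 3.62-fold lower at day 8, Egr3 2.37-fold, Fosb 2.30-fold and Junb 2.16-fold. In BAT control cells Fosb was 2.25-fold higher, Jun 1.97-fold, Jund 1.62-fold and Fosl2 1.32-fold. Fosl2 lost its call without BAT day 4 control replicate 2 (log2 change 0.283, adjusted p = 0.1 in limma) or BAT day 8 control replicate 1 (0.375, adjusted p = 0.0511 in limma). The falls of Fosl1, Junb and Egr2 in BAT control cells were 1.32-fold, 1.26-fold and 1.50-fold. They lost their calls in 16, 15 and 7 of 25 alternatives, among them leaving out any 1 of 10, 11 and 4 libraries. In replicate 3 Fosl1 was higher at day 8 (log2 change 0.25) and Junb was nearly unchanged (-0.01). Median-ratio scaling raised the share of higher genes among those called in BAT control cells from 41.5 to 53.3%.

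With EGCG in the medium the depots also parted. In WAT 6 members were lower at day 8 and Egr3 was higher, against 27.7% of all genes called lower and 31.8% higher. In BAT 6 were higher (Fos, Fosb, Jun, Jund, Egr1, Egr3) and 2 lower (Fosl1, Junb), against 29.7% called higher and 28.2% lower. In WAT Fos fell 3.30-fold, Egr1 5.63-fold, Junb 3.89-fold and Egr2 2.81-fold. In BAT Fos rose 1.90-fold, Egr1 1.63-fold, Jun 1.65-fold and Egr3 4.16-fold. The Egr1 and Junb calls in BAT were each lost with any 1 of the 4 BAT EGCG libraries left out (adjusted p of 0.0535 to 0.0831 and of 0.103 to 0.114). Fosl1 lost its call there without BAT day 4 EGCG replicate 1 (0.0753) or BAT day 8 EGCG replicate 2 (0.078). In WAT Egr3 lost its rise without WAT day 4 EGCG replicate 1 (0.102) or WAT day 8 EGCG replicate 2 (0.0669).

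The difference between depots in the change from day 4 to day 8 was tested after the values had been seen. It was called for 8 members in control cells and for 8 in EGCG cells, all toward BAT, and for Fosl1 and Fosl2 in neither. Of all tested genes, 14.8% were called toward BAT in control cells and 7.17% in EGCG cells. Median-ratio scaling raised the share toward BAT among called genes from 37.1 to 54.7% in control cells. In EGCG cells the depot difference was 3.15 ± 0.32 for Egr1, 2.49 ± 0.15 for Fos, 1.72 ± 0.31 for Egr2 and 1.58 ± 0.18 for Junb. Jund had the smallest called value, 0.39 ± 0.12, and lost its call with any 1 of 10 libraries left out (adjusted p of 0.0525 to 0.141).

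**Figure D4:**
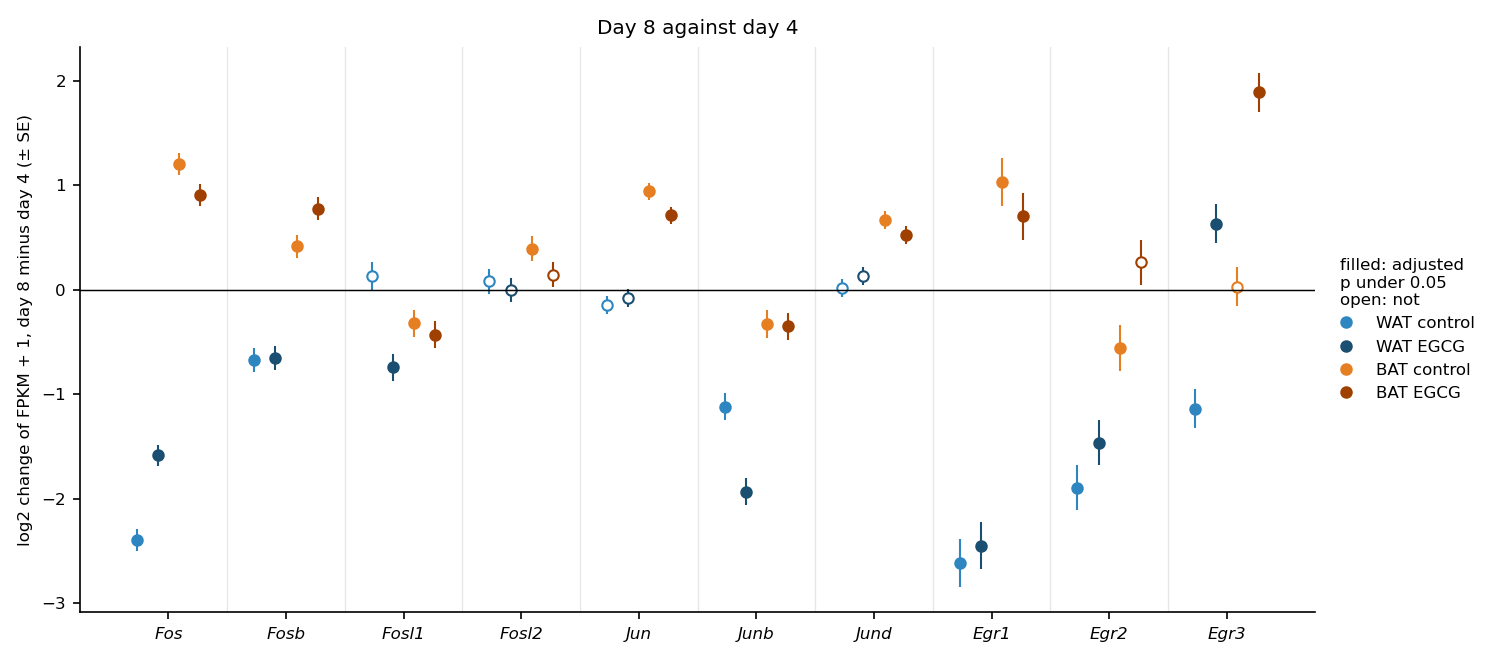
Log2 change of FPKM + 1 from day 4 to day 8 (± SE) for each member in WAT and BAT, control and EGCG. Filled points had an adjusted p under 0.05. Fos and Egr1 lie at -2.39 and -2.62 in WAT control and at 1.20 and 1.03 in BAT control, and no Fosl2 point lies further from 0 than 0.39.

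The third comparison set BAT against WAT within a day and treatment. These comparisons use the same libraries as those above. At day 4 in control cells 7 members were lower in BAT and Fosl1 was higher, against 14.4% of all genes called lower and 41.4% higher. Median-ratio scaling lowered the share of higher genes among those called from 74.3 to 51.5%. Fosb was 5.24-fold lower in BAT, Egr3 3.76-fold, Egr2 2.99-fold, Egr1 2.63-fold, Jun 1.97-fold, Fos 1.95-fold and Jund 1.70-fold. Fosl1 was 3.89-fold higher in BAT. At day 8 in control cells 4 members were higher in BAT and none was called lower, against 31.6% of all genes called higher and 22.0% lower. Fos was 8.02-fold higher, Egr1 4.66-fold, Fosl1 2.52-fold and Junb 1.69-fold. At day 8 the direction of Egr2 depended on the WAT control libraries: it was 0.291 higher in BAT without replicate 1 and 0.71 lower without replicate 2.

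With EGCG at day 4 Fos was 1.60-fold higher in BAT, and Fosb, Jun, Jund and Egr2 were lower, against 32.9% of all genes called higher and 15.8% lower. Among called genes the share of higher ones was 67.6%, and 56.9% after median-ratio scaling. The call of Jun was lost with any 1 of 12 libraries left out (adjusted p up to 0.19) and that of Egr2 with any 1 of the 4 libraries compared left out (0.0566 to 0.0745). With EGCG at day 8 the 7 members Fos, Fosb, Jun, Junb, Egr1, Egr2 and Egr3 were higher in BAT, against 24.4% of all genes called higher and 14.0% lower. There Fos was 10.03-fold higher, Egr1 7.49-fold and Junb 3.25-fold.

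Set in order of mean level, the groups differed between members. For Fos the order was BAT day 8 EGCG (72.5 FPKM), BAT day 4 EGCG (38.2), BAT day 8 control (27.4), WAT day 4 EGCG (23.9), WAT day 4 control (22.2), BAT day 4 control (11.4), WAT day 8 EGCG (7.22) and WAT day 8 control (3.41). The third overlapped with the fourth and the fourth with the fifth, and no other neighbours did. Egr1 had the same top group (201.8 FPKM) and the same bottom pair (26.95 and 22.8), which overlapped. Egr2 was instead highest in WAT day 4, at 82.1 FPKM with EGCG and 76.4 in control, and lowest in BAT day 8 control (17.0), which overlapped with the next group, WAT day 8 control (21.1). Jund was highest in WAT day 8 EGCG (40.75 FPKM), followed by WAT day 4 EGCG and BAT day 8 EGCG, and each overlapped with the next of these.

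Over the 16 libraries Fos and Egr1 had the most similar pattern of any pair of members, with a Pearson r of 0.93 of log2(FPKM + 1), and 0.936 over the 8 libraries of replicate 3. These points share depots, days and treatments, so the values are descriptions only. Among the other 8695 genes with a mean of at least 5 FPKM, the 3 most like Fos were Dusp1 (r 0.941), a phosphatase that switches MAP kinases off, Btg2 (0.916) and Ier2 (0.906), both immediate early genes themselves. Btg2 (0.948) and Ier2 (0.947) were also the 2 most like Egr1, followed by Dusp6 (0.926). Those most like Junb were Notch1 (0.965), Ier3 (0.942) and Dusp6 (0.939).

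The genes most like Fosl1 were of another kind. They were Gclm (r 0.968), a subunit of the enzyme that makes the precursor of glutathione, Pgpep1 (0.964) and Psrc1 (0.959). Fosb was most like Ier5 (0.979), Fnip1 and Jmy. Fosl2 was most like Bcar1 (0.963), Fbxw9 and Nes. Jun was most like Rusc2 (0.946), Ankrd1 and Sertad1, and Jund like Aldh3a2 (0.944), Mkrn1 and Fam100a. Egr2 was most like Eif1 (0.934), Brd2 and Phlda1, and Egr3 like Cacna2d1 (0.946), Emp1 and Tcf12. All 30 had an r of at least 0.823 over the libraries of replicate 3.

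Other genes of the pathway were counted in lists. Of 15 kinases and SRF factors upstream of these genes, all tested, 7 were higher and 1 lower with EGCG in WAT at day 4, 10 and 1 in WAT at day 8, 7 and 2 in BAT at day 4, and 11 and 2 in BAT at day 8. Over all tested genes 34.4, 44.7, 27.9 and 46.5% were called higher in these comparisons. The median log2 change of the list was 0.117, 0.388, 0.152 and 0.298, beside 0.087, 0.166, 0.032 and 0.168 over all tested genes. Map2k1, which encodes the kinase MEK1 above ERK, was at 37.9 ± 2.1 FPKM (SD, n = 2) in WAT day 4 control and at 92.9 ± 8.2 with EGCG (log2 change 1.27 ± 0.06). Srf fell there from 29.2 to 14.2 FPKM (log2 change -0.99 ± 0.11). Elk3, an SRF partner, had the highest called change of the list in the other 3 comparisons (1.15 in WAT at day 8, 0.83 and 1.66 in BAT at day 4 and day 8).

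Of 10 feedback inhibitors and EGR corepressors, 4 rose and 4 fell in WAT at day 4, 6 rose and 3 fell in WAT at day 8, 6 rose and 4 fell in BAT at day 4, and 8 rose and 1 fell in BAT at day 8. The median log2 change of this list was -0.115, 0.530, 0.380 and 0.895, against the same medians and shares over all genes. Spry1, an inhibitor of receptor kinase signalling, was at 52.1 ± 0.3 FPKM in WAT day 4 control and at 8.96 ± 0.70 with EGCG (log2 change -2.42 ± 0.10). Nab2, a corepressor that EGR proteins induce, rose there from 11.15 to 20.1 FPKM. Dusp5, an ERK phosphatase, rose in BAT from 2.98 to 7.19 FPKM at day 4 and from 3.39 to 13.6 at day 8. Spry4 was the most lowered gene of the list in BAT at day 4 (log2 change -0.80), and Nab1 at day 8 (-0.44).

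Of 16 other immediate early genes, 15 were tested. With EGCG 5 rose and 7 fell in WAT at day 4, 9 rose and 1 fell in WAT at day 8, 12 rose and none was called lower in BAT at day 4, and 14 rose and none was called lower in BAT at day 8. The median log2 change of this list was 0.229, 0.603, 0.979 and 0.869 in that order, beside 0.087, 0.166, 0.032 and 0.168 over all tested genes. Of all tested genes 34.4, 44.7, 27.9 and 46.5% were called higher, and 19.3, 18.9, 20.6 and 26.1% lower. Ctgf, a matricellular protein gene, had the highest called change in 3 of the comparisons: it rose from 71.0 to 281.2 FPKM in WAT at day 8, from 19.5 to 137.2 in BAT at day 4 and from 84.4 to 613.9 in BAT at day 8. Cyr61, of the same family, fell from 457.7 to 175.3 FPKM in WAT at day 4, where Btg2 rose from 38.6 to 84.6. From day 4 to day 8 in control cells 12 of the 15 fell and 2 rose in WAT, and 4 fell and 10 rose in BAT. Over all tested genes 33.2% were called lower and 27.7% higher in WAT, and 40.4% lower and 28.7% higher in BAT.

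Of 10 further AP-1 and bZIP partners matched to a gene, 8 were tested. With EGCG 4 rose and 1 fell in WAT at day 4, 5 and 2 in WAT at day 8, 4 and 0 in BAT at day 4, and 7 and 1 in BAT at day 8, where 34.4, 44.7, 27.9 and 46.5% of all tested genes were called higher. Their median log2 change was 0.136, 0.300, 0.293 and 0.544, beside the medians over all genes of 0.087, 0.166, 0.032 and 0.168. Maff, a small MAF protein, rose from 10.06 to 24.2 FPKM in WAT at day 4 and from 4.85 to 27.7 in BAT at day 4. Atf3, a stress-induced factor that dimerizes with JUN proteins, rose from 6.83 to 27.0 FPKM in WAT at day 8 and from 12.85 to 33.6 in BAT at day 8.

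Of 13 textbook targets of AP-1, all tested, 6 rose and none was called lower in WAT at day 4, 9 rose and 2 fell in WAT at day 8, and 10 rose and 1 fell in BAT on both days. Their median log2 change was 0.433, 0.697, 1.29 and 1.74 in that order, beside 0.087, 0.166, 0.032 and 0.168 over all tested genes. Of all tested genes 34.4, 44.7, 27.9 and 46.5% were called higher, and 19.3, 18.9, 20.6 and 26.1% lower. Spp1 (osteopontin) rose from 103.2 to 452.9 FPKM in WAT at day 4, and Cd44, its receptor, from 10.9 to 46.2 in WAT at day 8. Timp1, an inhibitor of metalloproteinases, rose from 466.5 to 1668 FPKM in BAT at day 4. Ptgs2, which encodes the prostaglandin enzyme COX2, rose from 1.03 to 30.8 FPKM in BAT at day 8. Mmp9, a metalloproteinase, went against the list in BAT and fell from 12.4 to 3.12 FPKM at day 4 and from 8.04 to 0.0552 at day 8.

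Markers of cell types moved with EGCG too. In WAT 34.4% (day 4) and 44.7% (day 8) of all tested genes were called higher, and 19.3 and 18.9% lower. In BAT 27.9 and 46.5% were called higher, and 20.6 and 26.1% lower. All 10 mature adipocyte markers were lower with EGCG in each of the 4 comparisons. Their summed FPKM in replicates 1 and 2 was 3730 to 4105 in WAT day 4 control and 1106 to 1157 with EGCG, 6183 to 6962 and 651.4 to 713 in WAT day 8, 6354 to 7364 and 1542 to 1606 in BAT day 4, and 11170 to 11240 and 473.9 to 481.5 in BAT day 8. None of the 10 was at 0 in both libraries of a group. Of 7 macrophage markers tested, 6 and 4 were higher with EGCG at day 4 in WAT and BAT, and 7 and 6 were lower at day 8. The sum of the 8 listed macrophage genes was 69.3 to 74.2 and 184.1 to 188.2 FPKM (control and EGCG) in WAT day 4, 104.1 to 119.9 and 56.0 to 59.3 in WAT day 8, 156.6 to 166.1 and 348.6 to 388 in BAT day 4, and 106.1 to 109.2 and 58.0 to 58.7 in BAT day 8. Lyz2 made up most of this sum, with a mean of 55.4 FPKM in WAT day 4 control and 162.4 with EGCG.

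Of 5 endothelial markers tested, 4 were higher with EGCG in WAT on each day and all 5 in BAT on each day. The sum of the 6 listed genes was 11.1 to 21.7 FPKM over the control libraries and 29.0 to 38.8 over the EGCG libraries. Of 8 stromal precursor markers, 2 were higher and 3 lower at day 4 in each depot, 1 and 6 in WAT at day 8, and 1 and 5 in BAT at day 8. Of 4 skeletal muscle markers tested, 4 were higher with EGCG in WAT at day 4. There the sum of the 6 listed genes was 39.5 to 40.1 FPKM in control and 73.1 to 74.1 with EGCG. Of these 4 markers, 1 was called higher in WAT at day 8, none was called in BAT at day 4, and 1 was called lower in BAT at day 8.

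The marker lists also moved between the days and between the depots. Of all tested genes 27.7% were called higher and 33.2% lower at day 8 in WAT control cells. In BAT control cells the shares were 28.7 and 40.4%. With EGCG they were 31.8 and 27.7% in WAT, and 29.7 and 28.2% in BAT. From day 4 to day 8 in control cells 6 adipocyte markers were higher and 1 lower in WAT, and 8 were higher and none was called lower in BAT. All 7 macrophage markers tested were higher at day 8 in WAT, and in BAT 1 was higher and 1 lower. Of the 8 stromal markers 5 were higher and 1 lower in WAT, and 3 were higher and 4 lower in BAT. Of the 5 endothelial markers 4 were higher in WAT and 2 in BAT, with none called lower. Skeletal muscle markers moved in opposite directions in the depots: 3 of 4 were lower at day 8 in WAT (median log2 change -0.60) and all 4 were higher in BAT (1.08). The sum of the 6 listed muscle genes went from 39.5 to 40.1 FPKM at day 4 to 23.6 to 26.95 at day 8 in WAT control cells, and from 10.4 to 18.2 FPKM to 33.0 to 36.4 in BAT control cells. With EGCG 4 muscle markers were lower at day 8 in WAT and 2 higher in BAT, 8 adipocyte markers were lower in WAT, and in BAT 9 were lower and 1 higher. Macrophage markers were lower there for 5 in WAT and 6 in BAT, stromal markers were higher for 4 and lower for 3 in WAT and higher for 1 and lower for 4 in BAT, and endothelial markers were higher for 2 in each depot and lower for 2 in WAT and 1 in BAT.

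Between depots 8 adipocyte markers were higher in BAT in control cells on each day (1 was lower at day 4), and with EGCG 8 were higher at day 4 and 9 at day 8, with 1 lower on each day. Macrophage markers in control cells were higher in BAT at day 4 for 6 of 7 and lower at day 8 for 4, and with EGCG 5 were higher at day 4 and 1 was lower at day 8. Stromal markers were lower in BAT for 5 of 8 at day 4 and 6 at day 8 in control cells, and for 6 and 5 with EGCG. Up to 2 stromal markers were higher in a comparison. Muscle markers were lower in BAT for 3 of 4 at day 4 in control cells (median log2 difference -1.06) and for 4 with EGCG, and at day 8 for none in control cells, where 1 was higher, and for 1 with EGCG. Of the 5 endothelial markers 3 were lower in BAT in control cells on each day and 1 was higher at day 4. With EGCG 1 was higher at day 4, and 3 were higher and 1 lower at day 8. Of all tested genes 41.4 and 31.6% were called higher in BAT in control cells at day 4 and day 8, and 14.4 and 22.0% lower. With EGCG 32.9 and 24.4% were called higher, and 15.8 and 14.0% lower. The part of these markers in the changes of the AP-1 and EGR genes was not tested. In such bulk libraries a change in the share of a cell type and a change of RNA per cell cannot be told apart.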

How the data were processed

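Gene expression was measured by RNA-seq of total RNA in 24 libraries. The authors deposited FPKM values in 2 separately scaled tables, replicates 1 and 2 in the first and replicate 3 in the second, with 37310 genes each. Per the labels, the submitters' processing notes name FastQC 0.11.9, HISAT2 2.2.0, HTSeq 0.11 and mm9. The deposited FPKM values, multiplied by gene length, were whole reads within 0.01 for 100.0% of values. Gene lengths equalled the longest transcript of GENCODE vM1. The log2(FPKM + 1) values were computed here.

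Groups came from the labels. The 10 members and all gene lists were chosen with earlier results of these data known. Of 112 list entries, 110 matched 1 gene each. From each list, the called gene with the highest and the lowest change was named where its mean reached 5 FPKM in the higher group and replicate 3 moved the same way. One gene that this rule would name is not reported here. The like genes are the 3 with the highest Pearson r.

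Genes with an FPKM of at least 1 in at least 2 of 16 libraries (replicates 1 and 2) were modelled as 8 group means in limma 3.58.1 (R 4.3.3, lmFit, contrasts.fit, eBayes with trend), two-sided, with Benjamini-Hochberg adjustment over 14095 genes per comparison. All 8 groups shared 1 estimate of the spread. The procedure was tested on simulated data first. No test used replicate 3, except in the alternatives named in the closing section. The alternatives were another pseudocount, other filters, other scalings, a replicate block, both tables together, voom on the recovered reads, and leaving out each library. With 1 library of a group left, that library is assumed to vary like the other groups. The replicate block and its check stand in the closing section. Errors are SE of the fit or SD between libraries.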

Additional observations from a re-analysis of the deposited data

Results flagged for a closer look

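A result is listed here where the difference between depots or between days was itself called in limma (adjusted p under 0.05). There were 34 such differences, given as log2 values. They share libraries with each other.

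For the EGCG response at day 4, BAT minus WAT, the values were 1.58 for Fos, -1.48 for Fosl1, 0.71 for Jun, 1.08 for Egr1 and 1.41 for Egr3. At day 8 they were 0.48 for Fos, 0.62 for Fosb, -0.71 for Fosl1, 0.42 for Jun, 0.91 for Junb, 1.21 for Egr2 and 1.50 for Egr3. Fosl1 was the one member called with a larger response in WAT, and it was so on both days.

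For the EGCG response in WAT, day 8 minus day 4, the values were 0.81 for Fos, -0.87 for Fosl1, -0.82 for Junb and 1.77 for Egr3. In BAT they were 0.82 for Egr2 and 1.86 for Egr3. Egr3 was the one member called in both depots, and its control level at day 8 was below its day 4 level in WAT (4.81 and 11.4 FPKM) and close to it in BAT (3.10 and 3.03 FPKM).

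For the change from day 4 to day 8, BAT minus WAT, in control cells, the values were 3.59 for Fos, 1.09 for Fosb, 1.09 for Jun, 0.79 for Junb, 0.65 for Jund, 3.65 for Egr1, 1.33 for Egr2 and 1.17 for Egr3. In EGCG cells they were 2.49 for Fos, 1.43 for Fosb, 0.79 for Jun, 1.58 for Junb, 0.39 for Jund, 3.15 for Egr1, 1.72 for Egr2 and 1.26 for Egr3. These 2 comparisons were chosen after the values had been seen.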

How the results depend on the processing

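Of 162 member counts under other fits, 158 stayed within 1.5 times the reported count. The exceptions were all in the day difference of the EGCG response in BAT, where the count of 2 became 1 without a filter, 4 with quantile normalization, 8 with all 24 libraries (median-ratio scaling and replicate block) and 6 with 23 of them (without WAT day 8 EGCG replicate 3). The cause was not tested. A filter of 5 FPKM dropped Fosb, so it has no value there. Of 1602 single values under other fits, 1527 kept direction and side of the threshold, 28 lost a call, 47 gained one and none reversed. Of 2880 with 1 library left out, 2725 kept both, 110 lost a call, 42 gained one and 3 reversed. The reversed ones were Egr2 in BAT against WAT control at day 8 (0.29 without WAT day 8 control replicate 1, against -0.71 without replicate 2), Egr1 with EGCG in WAT at day 8 (-0.20 without replicate 2 and 0.86 without replicate 1) and its day difference in WAT (-0.36 without replicate 2 and 0.70 without replicate 1).

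With 1 library left out, the number of members called with EGCG ran from 6 to 8 in WAT day 4, 7 to 10 in WAT day 8, and 10 to 10 in BAT on both days. From day 4 to day 8 it ran from 6 to 7 in WAT control, 6 to 7 in WAT EGCG, 6 to 9 in BAT control and 5 to 9 in BAT EGCG. For BAT against WAT it ran from 8 to 8 (control day 4), 4 to 7 (control day 8), 3 to 6 (EGCG day 4) and 7 to 8 (EGCG day 8). For the differences of the EGCG response it ran from 4 to 6 (depots, day 4), 6 to 9 (depots, day 8), 4 to 7 (days, WAT) and 1 to 5 (days, BAT). For the depot difference of the day change it ran from 8 to 9 in control and 7 to 8 in EGCG cells.

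The replicate numbers did not pair the samples of the tested table: the differences of replicate 1 minus 2 correlated between groups at -0.079 to 0.081, over 0.1 in 0 of 28 pairs. With the replicate block 1 call changed, the depot difference of the day change of Fosl1 in control cells (-0.45, adjusted p = 0.039 in limma). Over 24 libraries after median-ratio scaling, deviations from the group means correlated at 0.671 or more between libraries of the same replicate number. This covers all replicate numbers, and 16 of 24 libraries were most like those of their own number. The libraries of replicate 3 form a separate table. Depth limits Fosb most, with 55 reads in 1 tested library.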

Other observations

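As deposited, Jund stood higher in the table of replicate 3 than in the other table in every group but WAT day 8 EGCG. There it was at 33.8 FPKM in replicate 3 and at 42.8 and 38.7 in replicates 1 and 2. After median-ratio scaling the replicate 3 value of Jund was 1.74 to 2.09 times the mean of replicates 1 and 2 in every group. That of Fosl1 was 1.05 to 1.69 times. For Egr3 the ratio was 0.583 to 0.934, and for Fosl2 0.791 to 0.936. For Egr1, Egr2 and Fos the median ratio over the 8 groups was 1.05, 0.999 and 1.04. Levels of Jund, Fosl1 and Egr3 are therefore less alike between the tables than those of Fos and Egr1, while all 35 called EGCG changes of members had the same direction in both tables after median-ratio scaling. In the deposited FPKM of replicate 3, 6 of the 8 changes called in WAT at day 8 went the other way.

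The control libraries of WAT at day 8 differed among themselves more for some members than for others. Between replicate 1 and replicate 2 Egr1 was at 31.2 and 14.4 FPKM, Egr2 at 28.5 and 13.7, Egr3 at 6.28 and 3.34 and Junb at 49.9 and 34.2. Fos was at 3.40 and 3.43 and Jund at 28.3 and 25.45 in the same libraries.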
